A study of Mus musculus with 12 samples.

Results

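The 10 genes described here encode alpha and beta tubulin: 4 alpha genes (Tuba1a, Tuba1b, Tuba1c and Tuba4a) and 6 beta genes (Tubb2a, Tubb2b, Tubb3, Tubb4b, Tubb5 and Tubb6). They were taken by name, and all 10 were found among the 49585 genes of the table of sorted cells and the 21823 genes of the table of cultured cells. RNA came from mouse Sertoli cells, which nurse germ cells inside the seminiferous tubules, in 12 libraries that form 4 groups of 3. Conditional knockout (cKO) cells carried AmhCre with both Ptbp1 alleles floxed (flox/flox), and control cells carried AmhCre with 1 floxed and 1 wild-type allele (flox/wt). Both genotypes also carried mTmG, a fluorescent reporter that Cre switches, and both were isolated by flow sorting, so the control is itself a Cre carrier with a floxed allele. The Amh promoter that drives Cre is active in Sertoli cells. The other 6 libraries came from wild-type Sertoli cells in primary culture: RNA recovered with PTBP1 by immunoprecipitation (IP) and input RNA. PTBP1, polypyrimidine tract binding protein 1, binds pyrimidine-rich RNA and regulates splicing, stability and translation. Sorted libraries were made from poly(A) RNA and cultured libraries from total RNA, with different kits. The labels give neither the age of the animals nor the number of animals or cultures behind a group, so p-values measure the spread between these libraries, which may be technical.

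Microtubules are hollow polymers of heterodimers that each hold 1 alpha and 1 beta tubulin, and a cell builds them from several near-identical isotypes encoded by separate genes. In Sertoli cells they run along the length of the cell, give it its columnar form and carry the motors that move elongating spermatids through the epithelium. Cells also hold tubulin levels in check after transcription: when free dimers are in excess, the adaptor TTC5 reads the first amino acids of a tubulin chain as it leaves the ribosome and its messenger RNA is degraded. New chains are folded by prefoldin, the CCT chaperonin and the tubulin cofactors before they can join a dimer.

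Total counts ran from 11980474 to 13750181 in the cKO libraries, from 12813037 to 13503686 in the controls, from 26725003 to 28796396 in the IPs and from 12894035 to 15315115 in the inputs. Levels are given as CPM, counts-per-million taken after TMM scaling, which corrects library sizes for differences in RNA composition. In both sorted groups the third library stood apart: chi-square per degree of freedom against the others was 25.8 and 21.2 in cKO and 25.3 and 19.0 in control cells, while the first 2 libraries differed by 8.20 in cKO and 5.73 in control cells. Without the third library of both groups the 6 tubulin genes that fell had log2 folds from -1.50 to -0.68, all called. Ptbp1 itself, the deleted gene, was at 7.71, 7.99 and 7.65 CPM in the cKO libraries and at 249, 251 and 241 CPM in the controls, 31.7-fold lower (edgeR's quasi-likelihood test, adjusted p = 4.57e-10). The Sertoli markers Amh, Sox9, Wt1 and Cldn11, from a list of 15, were detected in every group. Sox9 was at 308 to 331 CPM in cKO, 407 to 431 in control, 649 to 727 in IP and 422 to 449 in input libraries. Cldn11 was higher in the inputs (1972 to 2079 CPM) than in control cells (1087 to 1187 CPM). Amh was at 112 to 146 CPM in cKO and 255 to 281 in control cells, but at 22.2 to 26.0 in IP and 15.4 to 19.0 in input libraries. Other markers of the list were scarce in culture. Rhox5 had 86.8 to 110 CPM in control cells but 0 to 0.0394 in IP and 0.231 to 0.544 in input libraries. Rhox8 had 175 to 274 CPM in control cells but 0.0788 to 0.169 in IP and 4.15 to 5.03 in input libraries. Gata1 had 223 to 263 CPM in control cells but 3.44 to 6.49 in IP and 1.065 to 2.36 in input libraries.

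Sorted cKO cells were set against control cells to ask which tubulin transcripts differ when Ptbp1 is deleted. Within the 10 genes, the 6 with the highest CPM in these cells were all lower in the cKO, and the other 4 gave no call. Tuba1b fell most, to 41.4% of its control level, and Tubb4b least, to 61.0%. Of 9 members tested, 0 rose and 6 fell (adjusted p under 0.05), where 39.0% of the 13405 tested genes were called, 17.6% higher and 21.4% lower. A log2 fold of -1 or less with a call was found for 5 of the 9 (Tuba1a, Tuba1b, Tuba1c, Tubb3 and Tubb5) and for 2.31% of all tested genes. That count depends on the setting: it was 1 (Tuba1b) with library size alone, 2 (Tuba1a and Tuba1b) without control library 1 or without cKO library 2, 3 without control library 2, and 4 with DESeq2. Library size alone moved the median of all genes to 0.17, and all 6 remained called lower. The median log2 fold of the 9 was -1.01, against 0.00 over all tested genes. The 6 that fell lay between the percentiles 0.85 and 9 of all log2 folds, counted from the most negative. In this bulk RNA, fewer Sertoli cells in a sort and less tubulin RNA per cell cannot be told apart.

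Among the alpha genes, Tuba1a, a main isotype of neurons that many other cells also make, had 370, 352 and 395 CPM in the cKO libraries and 841, 867 and 732 CPM in the controls. Every cKO library was below every control library. Its log2 fold was -1.13 (SE 0.11, adjusted p = 6.24e-05). Tuba1b, the widely expressed alpha tubulin, had 178, 155 and 208 CPM in cKO cells and 464, 474 and 369 CPM in control cells, again without overlap, with a log2 fold of -1.27 (SE 0.14, adjusted p = 9.38e-05). Tuba1c, another widespread alpha isotype, had 66.3, 48.9 and 57.6 CPM in cKO cells and 129.7, 126 and 106 CPM in control cells, and fell by 1.07 on the log2 scale (SE 0.13, adjusted p = 1.80e-04). Tuba4a, unlike most alpha tubulins, is encoded without the C-terminal tyrosine. It had 4.20, 4.54 and 10.5 CPM in cKO cells and 5.33, 8.30 and 7.81 CPM in control cells, so the groups overlapped (log2 fold -0.15, SE 0.35, adjusted p = 0.765). Its span overlaps that of the kinase gene Stk16, with 712 to 972 counts per library, against 58 to 154 for Tuba4a, so some of its reads may not be its own.

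Of the beta genes, Tubb5, the general beta tubulin of dividing and non-dividing cells, was the most abundant by CPM. It had 709.9, 628 and 747 CPM in the cKO libraries and 1470, 1482 and 1242 CPM in the controls. The groups did not overlap, and Tubb5 fell by 1.01 on the log2 scale (SE 0.12, adjusted p = 1.38e-04). Tubb3, best known as a marker of neurons, had 78.5, 70.3 and 77.3 CPM in cKO cells and 161, 167 and 134 CPM in control cells. It fell by 1.03 (SE 0.12, adjusted p = 1.11e-04). Tubb4b, an isotype also used in axonemes, had 112, 106 and 103 CPM in cKO cells and 174, 171 and 180.5 CPM in control cells, and fell by 0.71 (SE 0.10, adjusted p = 2.79e-04). For all 6 genes that fell, each cKO library was below each control library. Groups did not overlap for 49.7% of all tested genes.

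**Figure D1:**
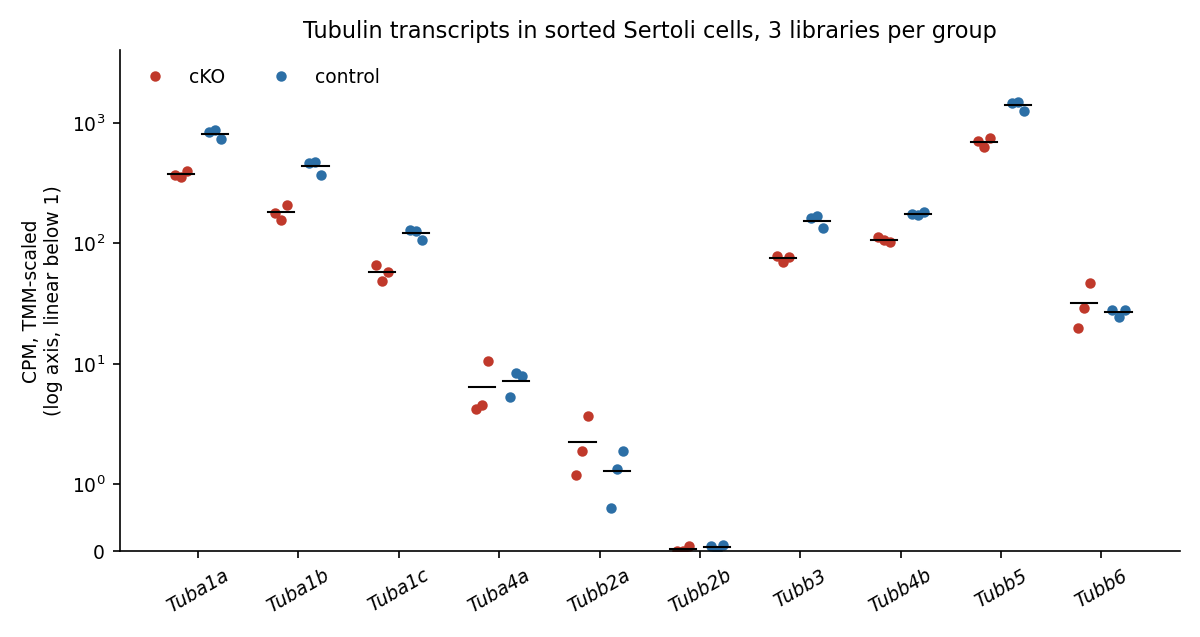
CPM of each tubulin gene (log axis, linear below 1 CPM) in the 3 cKO and 3 control libraries of sorted Sertoli cells; points are libraries and bars group means. The cKO points lie below all control points for Tuba1a, Tuba1b, Tuba1c, Tubb3, Tubb4b and Tubb5, while Tuba4a, Tubb2a, Tubb2b and Tubb6 overlap.

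The other beta genes were scarce in sorted cells. Tubb6, a widespread isotype of non-neuronal cells, had 19.6, 28.8 and 47.0 CPM in the cKO libraries and 27.8, 24.2 and 27.9 CPM in the controls (log2 fold 0.26, SE 0.25, adjusted p = 0.445). The third cKO library alone stood above the other 5 by a wide margin, and without it the log2 fold was -0.14 (adjusted p = 0.551). Tubb2a, a neuronal-type beta tubulin, had 1.19, 1.88 and 3.69 CPM in cKO cells and 0.636, 1.33 and 1.87 CPM in control cells (log2 fold 0.82, SE 0.53, adjusted p = 0.251), and 0.26 without the third cKO library. Tuba4a was also highest in that library, and without it its log2 fold was -0.71 (adjusted p = 0.0602). Summed levels of 7 endothelial markers were 25.1 CPM in the third cKO library against 6.44 and 9.01 CPM in the other cKO libraries and 15.8, 13.3 and 9.04 CPM in the controls. Red blood cell markers summed to 55.1 CPM in that library, against 23.7 and 21.5 CPM in the other cKO libraries. The controls had 62.0, 54.2 and 33.8 CPM, a range that holds the value of the third cKO library. Sums of Leydig, myoid, spermatogonial, dividing-cell, Sertoli and neuron markers were also highest there among cKO libraries. Those of macrophage, spermatocyte and spermatid markers were lowest there. The part of any of these cells in the tubulin values was not tested. Tubb2b, a close copy of Tubb2a, had 0, 0 and 1 counts in the cKO libraries and 1, 0 and 1 counts in the controls, too few to be tested.

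Reads of near-identical tubulin genes can be assigned to the wrong copy, and the rule by which such reads were shared out is not given in the sources used here. Tuba1a, Tuba1b and Tuba1c lie close together on chromosome 15 of mm10 (98949841 to 98953551, 98931425 to 98934565 and 99029891 to 99038105). Their summed level, which does not depend on how reads were split among them, was 614, 556 and 661 CPM in cKO cells and 1435, 1466 and 1207 CPM in control cells. The cKO mean of this sum was 44.6% of the control mean. The ratio of Tuba1a to Tuba1b counts within a library, which needs no scaling, was 2.08, 2.27 and 1.90 in cKO cells and 1.81, 1.83 and 1.98 in control cells. These ratios overlap (exact permutation test, two-sided, p = 0.2; adjusted over 10 ratios, 0.25).

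Levels can be compared between genes only per length, here as CPM per kilobase of exon. In cKO cells Tuba1a (226 ± 13.2) and Tubb5 (209 ± 18.3) led without differing beyond their spread, then came Tuba1b (96.2 ± 14.0), Tubb4b (51.2 ± 2.09), Tubb3 (40.3 ± 2.38), Tuba1c (29.1 ± 4.42), Tubb6 (18.1 ± 7.94), Tuba4a (1.73 ± 0.959) and Tubb2a (1.42 ± 0.814; SD, n = 3 each). In cKO cells Tuba1c and Tubb6, and Tuba4a and Tubb2a, also lay within their summed SDs. The control order was the same, from Tuba1a (494 ± 43.5) and Tubb5 (420.3 ± 40.7), again within their summed SDs, through Tuba1b (232 ± 30.9) to Tubb4b (83.9 ± 2.34) and Tubb3 (82.5 ± 9.59), a pair within its spread, and Tuba1c (61.1 ± 6.40). Tubb6 (15.2 ± 1.22), Tuba4a (1.93 ± 0.432) and Tubb2a (0.807 ± 0.391) followed. Summed over the 4 alpha and the 6 beta genes, the ratio of alpha to beta level was 1.10, 1.10 and 1.11 in the cKO libraries and 1.32, 1.34 and 1.27 in the controls, with no overlap. The difference rests on which genes enter: over 16 alpha and beta genes, Tuba3a and Tuba3b included, a sum chosen after seeing the data, the ratio was 1.55, 1.53 and 1.55 in the cKO libraries and 1.503, 1.52 and 1.57 in the controls, which overlap. Tuba1b took 13.4 to 15.2% of the summed level of the 10 genes in cKO cells and 15.8 to 17.1% in control cells, while Tubb6 took 1.65 to 3.68% in cKO and 0.932 to 1.28% in control cells. Tuba1a took 33.0 to 34.7% in cKO and 35.2 to 35.7% in control cells.

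As 6 members fell, the DNA just before their start sites was examined for common promoter motifs. Windows of 250 bases before the start site, from RefSeq (GRCm38.p6), were found for 8 of the 10 genes. CCAAT (or ATTGG on this strand) was in 5 of 8 windows, against 33.8% of 32851 windows of the same length; GGGCGG (or CCGCCC) was in 6 of 8, against 32.7%; TATAAA (or TTTATA) was in 1 of 8, against 12.4%. The motifs share no stretch with each other. The 5 windows with CCAAT were those of Tuba1a, Tuba1c, Tubb3, Tubb4b and Tubb5, and Tubb4b held 5 copies. Of the 6 genes that fell, Tuba1b had no CCAAT in its window. The 6 windows with GGGCGG were those of Tuba1a, Tuba1b, Tubb3 and Tubb4b, which fell, and Tuba4a and Tubb2a, which did not pass. Tuba1c and Tubb5, which fell, had none. The RefSeq start differed from that of the deposited table by 50 bases for Tuba1a, 129 for Tubb3, 175 for Tuba1b and 571 for Tuba4a. Windows of these genes may thus not precede the start in use. Shown here are the last 120 bases before the start for the 4 genes whose start site differed by at most 10 bases between RefSeq and the deposited table: Tubb5, Tubb4b and Tuba1c, which fell, and Tubb2a, which did not pass. Capitals mark these 3 motifs on either strand. They lie at chr17:35838307-35838426 (minus strand), chr2:25224703-25224822 (minus strand), chr15:99029771-99029890 (plus strand) and chr13:34078009-34078128 (minus strand), and all are written 5′ to 3′ along the gene.
Tubb5: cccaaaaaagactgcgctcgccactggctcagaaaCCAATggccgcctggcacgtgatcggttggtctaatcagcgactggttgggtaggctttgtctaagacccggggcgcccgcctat
Tubb4b: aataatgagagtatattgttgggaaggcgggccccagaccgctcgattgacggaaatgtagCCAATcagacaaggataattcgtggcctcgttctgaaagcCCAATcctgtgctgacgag
Tuba1c: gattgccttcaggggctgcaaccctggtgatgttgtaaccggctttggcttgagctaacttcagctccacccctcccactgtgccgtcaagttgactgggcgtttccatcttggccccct
Tubb2a: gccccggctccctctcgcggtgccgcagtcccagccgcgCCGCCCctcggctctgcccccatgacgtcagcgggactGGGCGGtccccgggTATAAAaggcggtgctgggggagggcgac
Within these 120 bases Tubb4b has 2 copies of CCAAT and Tubb5 has 1, Tuba1c has none of the 3 motifs, and Tubb2a has 1 TATAAA and 2 GGGCGG. A match is a description of the letters, not evidence that a factor binds there.

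Markers of Sertoli cells and of some other cells moved with the genotype. Of 15 Sertoli markers 12 fell and 1, Rhox8, rose in the cKO, while Wt1 (95.7% of control) and Rhox5 (117%) did not pass. Their summed level ran from 14630 to 15670 CPM in cKO and from 20590 to 21450 CPM in control libraries. Most of it was Clu, which fell, at 9663 ± 349 CPM in cKO and 13430 ± 132 CPM in control cells (SD, n = 3). Of 10 spermatocyte markers 8 rose, with sums of 506 to 546 CPM in cKO and 258 to 373 CPM in control libraries. Of 11 markers of dividing cells 4 rose, with sums of 204 to 252 CPM in cKO and 133 to 186 CPM in control libraries, and neither of these lists had a member that fell. Of 5 myoid markers tested 1 rose and 1 fell. Their sums were 206 to 256 CPM in cKO and 345 to 365 CPM in control libraries, of which Myl9, the 1 that fell, made up 172 ± 8.08 CPM in cKO and 289.6 ± 10.9 CPM in control cells (SD, n = 3). Of 4 Leydig cell markers tested 2 rose and 0 fell, with sums of 72.2 to 89.6 CPM in cKO and 51.7 to 54.6 CPM in control libraries. The 2 that rose made up most of these sums. Star was at 38.8 ± 5.53 CPM in cKO and 25.2 ± 2.39 in control cells, and Fdx1 at 36.2 ± 4.99 and 25.2 ± 0.719 (SD, n = 3). Cyp17a1, Cyp11a1, Hsd3b1, Insl3 and Lhcgr were at 0 to 1.89 CPM in the libraries of both groups. Of 8 spermatogonial markers tested 2 rose (Dazl and Ddx4, named after their values were seen) and 1 fell, with sums of 299.0 to 378 CPM in cKO and 317 to 376 CPM in control libraries. Most of these sums was Uchl1, the 1 that fell, at 224 ± 42.1 CPM in cKO and 292 ± 31.4 CPM in control cells (SD, n = 3). Nrxn3, the 1 neuron marker tested, rose. Neuron marker sums were 3.37 to 4.505 CPM in cKO and 0.651 to 0.997 CPM in control libraries. Of 5 red blood cell markers tested 0 rose and 1 fell, Alas2, at 15.1 ± 6.40 CPM in cKO and 42.8 ± 15.7 CPM in control cells (SD, n = 3). With library size alone 9 Sertoli markers fell and 2 rose, 6 dividing-cell markers rose, and 0 spermatogonial markers fell. The part of these shifts in the tubulin values was not tested. Spermatid markers summed to 15.7 to 23.3 CPM in cKO and 12.6 to 19.1 CPM in control cells. None of the 5 spermatid, 3 macrophage and 5 endothelial markers tested was called in either direction. For 2 of these lists that rests on the third libraries. Without the third library of both groups, 2 endothelial markers fell, with a list median of -1.47 against -0.11. In that setting 1 macrophage marker rose, and of the 5 myoid markers 0 rose and 2 fell. Tuba3a and Tuba3b, alpha tubulins of male germ cells, were at 75.2 ± 6.42 and 160.4 ± 16.7 CPM in cKO cells and at 69.1 ± 11.3 and 154 ± 33.3 CPM in control cells (SD, n = 3), with log2 folds of 0.12 and 0.06 (adjusted p = 0.490 and 0.792). None of the 5 other tubulins tested rose, and 1 fell: Tubg1, the gamma tubulin that seeds microtubules, had 24.5, 21.8 and 25.9 CPM in cKO cells and 46.0, 52.6 and 46.2 CPM in control cells, means of 24.1 ± 2.09 and 48.3 ± 3.74 (SD, n = 3; edgeR adjusted p = 1.86e-04).

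Genes that act on tubulin are given by list, to be read against 17.6% of all tested genes higher and 21.4% lower. Counts in brackets use library size alone as the scale, by which 3476 of 13405 genes were higher and 1863 lower. With 11 to 27 genes tested per list, the counts describe the lists and set none of them apart from the other genes. In the gamma-tubulin ring complex list 2 of 11 rose and 1 fell (3 and 0): Mzt1, a small subunit, rose by 1.10 (adjusted p = 9.1e-05), the centrosomal scaffold Akap9 rose by 0.76, and the ring subunit Tubgcp2 fell by 0.46, a call lost with library size alone (adjusted p = 0.0825). The 21 folding genes split into 5 that rose, 8 that fell (8 and 3) and the rest, which did not pass. The cofactor Tbcd, which takes up beta tubulin, fell by 0.92 (adjusted p = 9.7e-05), while Tbca, which also binds beta tubulin, rose by 0.81, the prefoldin subunit Vbp1 by 0.88 and the alpha tubulin cofactor Tbce by 0.72. For tubulin mRNA autoregulation, 2 of 12 rose while 3 fell (4 and 1). Scaper, which links TTC5 to the deadenylase that removes the tail of the message, rose by 0.81 (adjusted p = 4.12e-04), and the deadenylase Cnot7 by 0.71. The deadenylase complex subunits Cnot9 and Cnot3 fell by 0.56 and 0.31; Cnot3 lost its call with library size alone (adjusted p = 0.279). Ttc5 itself, added here for its role, was at 41.5 ± 3.18 CPM in cKO and 48.3 ± 0.424 CPM in control cells (SD, n = 3; edgeR adjusted p = 0.148).

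Among the 27 tubulin-modifying genes, 2 rose whereas 7 fell (2 and 2). Ttll12, a member of the tyrosine ligase-like family, fell by 1.39, to 107 ± 0.779 CPM in cKO cells, against 279 ± 29.4 CPM in control cells (SD, n = 3; edgeR adjusted p = 3.59e-05). The deacetylase Sirt2 fell by 0.45, a call lost with library size alone (adjusted p = 0.0675), and the deglutamylases Agtpbp1 and Agbl2 rose by 0.68 and 0.91. The lattice-binding, severing and sequestering list had 20 tested genes, 3 that rose and 6 that fell (5 and 3): the microtubule-associated protein Map1s fell by 0.95 and the minus-end binder Camsap3 by 0.81, and Fignl1, a relative of the severing enzyme fidgetin, rose by 1.19. Medians of the folding, autoregulation and modification lists were between -0.17 and -0.06, against 0.00 over all tested genes. With library size alone they were 0.06, 0.11 and 0.0007, against 0.17 over all tested genes, so all 3 stayed below it.

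**Figure D2:**
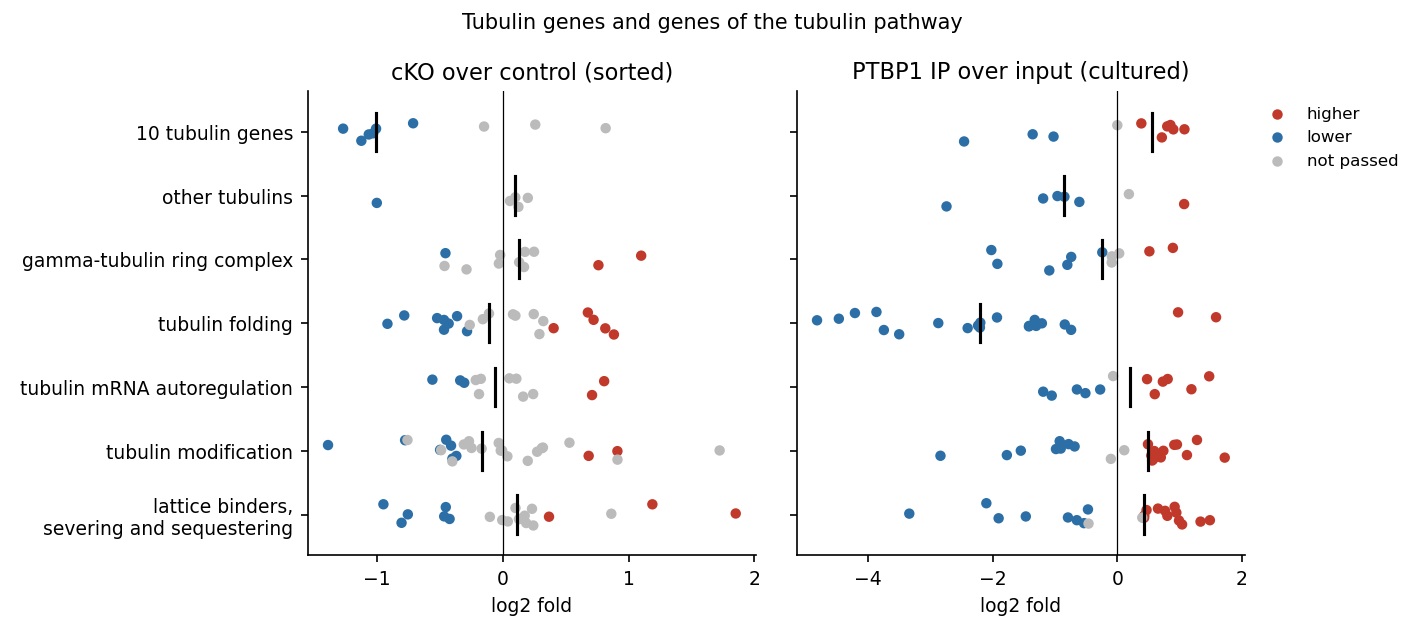
Log2 folds of the 10 tubulin genes (9 tested in sorted cells) and of the genes of 6 pathway lists, for cKO over control (left) and PTBP1 IP over input (right); each point is a gene, coloured by its call, and the black bar is the list median. In the cKO the tubulin median is -1.01 while the other medians lie between -0.17 and 0.13; over input the folding genes have the lowest median, -2.20.

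The comparison of PTBP1 IP with input in wild-type cultures asked which tubulin RNAs were recovered with the protein. All 10 members were tested. Tuba1b, Tuba1c, Tuba4a, Tubb2a, Tubb2b and Tubb5 were higher in the IP, Tuba1a, Tubb3 and Tubb6 were lower, and Tubb4b did not pass. Among 12854 tested genes 87.8% were called, 43.0% higher and 44.8% lower, so 9 calls of 10 are near the background and the members are described by the size and order of their folds. A log2 fold of 1 or more was called for Tuba1c, against 20.7% of all tested genes, and one of -1 or less for Tuba1a, Tubb3 and Tubb6, against 27.0%. The members' median was 0.55, against -0.03 over all tested genes. No immunoprecipitation with a control antibody was analysed here, so a fold over input is recovery relative to other RNAs and not binding as such.

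Tuba1a had 129, 127 and 116 CPM in the IPs and 331, 322 and 298 CPM in the inputs, the second lowest fold of the 10 (log2 -1.36, SE 0.05, adjusted p = 5.46e-15). Its neighbours lay in the other direction. Tuba1b had 193, 202 and 209 CPM in the IPs and 115, 118 and 101.3 CPM in the inputs (log2 fold 0.85, SE 0.06, adjusted p = 2.41e-11). Tuba1c had 219, 218 and 231 CPM in the IPs and 103, 111 and 102 CPM in the inputs, the highest fold of the 10 (1.08, SE 0.05, adjusted p = 5.44e-14). No IP library overlapped an input library for any of these 3 genes; groups did not overlap for 87.9% of all tested genes.

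On the TMM scale the 3 changes nearly cancel in the sum of Tuba1a, Tuba1b and Tuba1c. It was 541, 546 and 556 CPM in the IPs and 549.8, 550.4 and 501 CPM in the inputs. With TMM scaling these sums overlap. Library size alone gave lower log2 folds, -1.72 for Tuba1a, 0.49 for Tuba1b and 0.71 for Tuba1c. The factors by which TMM multiplied library sizes were 0.8816, 0.874 and 0.8877 for the IPs and 1.14, 1.132 and 1.133 for the inputs. Without them each IP sum is lower and each input sum higher, so that the sums no longer overlap. The overlap thus holds for TMM only. The ratio of Tuba1a to Tuba1b counts within a library was 0.669, 0.627 and 0.553 in the IPs and 2.88, 2.73 and 2.94 in the inputs. That of Tuba1a to Tuba1c was 0.591, 0.581 and 0.501 in the IPs and 3.20, 2.91 and 2.93 in the inputs. Neither ratio depends on scaling. Each gave p = 0.1 (exact permutation test, two-sided; adjusted over 10 ratios, 0.167), the smallest value that 3 against 3 libraries allow. How reads shared by these copies were counted in this table is not given in the sources used here, and a part of such reads in the ratios was not tested.

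Tubb5, which had the most counts in both groups, was at 2882, 2931 and 2736 CPM in the IPs and 1784, 1747 and 1671 CPM in the inputs (log2 fold 0.72, SE 0.04, adjusted p = 4.27e-12). Tubb2b had 221, 239.6 and 222 CPM in the IPs and 121, 119.7 and 125 CPM in the inputs (0.90, SE 0.05, adjusted p = 6.30e-13). Tubb2a had 110.3, 117 and 121 CPM in the IPs and 67.4, 65.8 and 66.3 CPM in the inputs (0.80, SE 0.05, adjusted p = 1.37e-11). This pair lies side by side on chromosome 13 of mm10 (34074301 to 34078008 for Tubb2a and 34127008 to 34130354 for Tubb2b), and its sum was 331, 356 and 343 CPM in the IPs and 189, 186 and 191 CPM in the inputs. Both copies and their sum thus lay in the same direction.

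Tubb6 had the lowest fold of the 10: 48.4, 50.1 and 48.9 CPM in the IPs and 279, 271 and 259 CPM in the inputs, 5.49-fold lower (log2 -2.46, SE 0.05, adjusted p = 4.77e-19). Tubb3 had 176, 183 and 188 CPM in the IPs and 372, 377 and 362 CPM in the inputs (log2 fold -1.02, SE 0.04, adjusted p = 2.20e-14). Tubb4b, at 283, 297 and 263 CPM in the IPs and 299, 278 and 265 CPM in the inputs, overlapped (log2 fold 0.00, SE 0.05, adjusted p = 0.969). With library size alone it was called lower (-0.36, adjusted p = 1.99e-06), since that scaling shifts the median log2 fold of all genes to -0.39. Tuba4a, at 8.91, 9.69 and 9.66 CPM in the IPs and 7.21, 7.57 and 6.80 CPM in the inputs, was called higher (0.39, SE 0.10, adjusted p = 0.00154), a call lost with library size alone (0.02, adjusted p = 0.839).

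**Figure D3:**
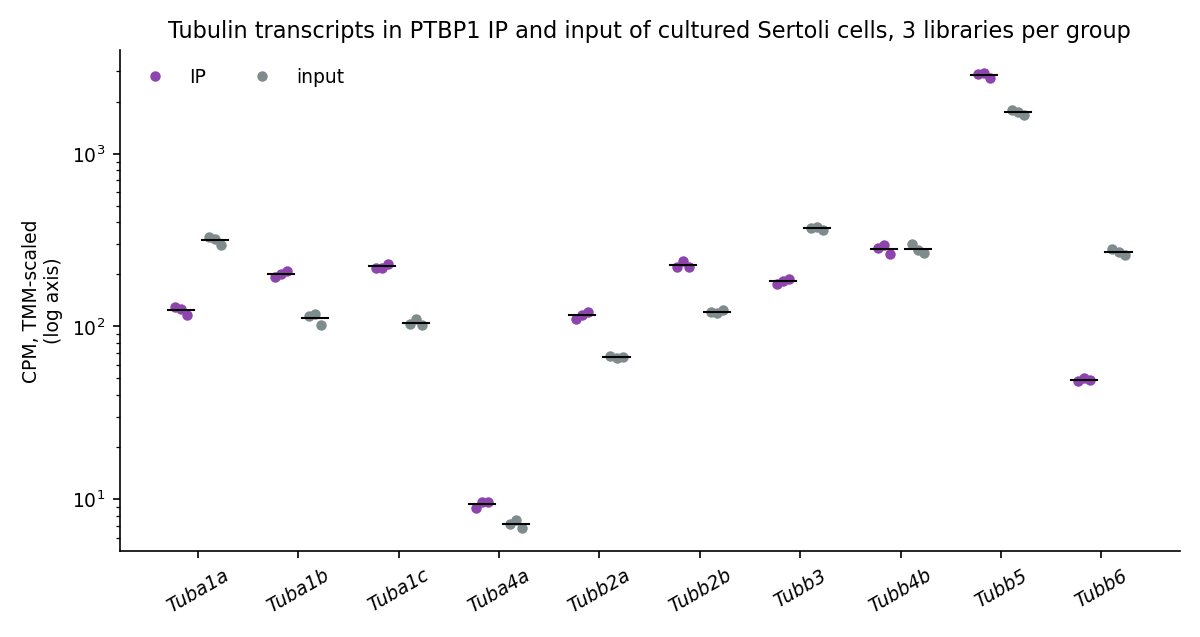
CPM of each tubulin gene (log axis) in 3 PTBP1 IP and 3 input libraries of cultured wild-type Sertoli cells; points are libraries and bars group means. IP points lie below input for Tuba1a, Tubb3 and Tubb6, overlap it for Tubb4b and lie above it for the other 6 genes.

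Per kilobase of exon, Tubb5 led in the IPs (857 ± 30.6 CPM per kilobase, SD, n = 3), followed by Tubb4b (135 ± 8.05), Tubb2b (118 ± 5.41), Tuba1c (113 ± 3.73), Tuba1b (107 ± 4.35), Tubb3 (97.7 ± 3.16), Tuba1a (75.2 ± 4.28), Tubb2a (73.2 ± 3.32), Tubb6 (28.0 ± 0.501) and Tuba4a (2.54 ± 0.120). The neighbouring pairs Tubb2b and Tuba1c, Tuba1c and Tuba1b, and Tuba1a and Tubb2a differed by less than their summed SDs. In the inputs Tubb5 (521 ± 17.3) was followed by Tubb3 (198 ± 3.89) and Tuba1a (193 ± 10.4), which did not differ beyond their spread. Then came Tubb6 (153 ± 5.84), Tubb4b (134 ± 8.36), Tubb2b (63.4 ± 1.33), Tuba1b (59.4 ± 4.78), Tuba1c (53.3 ± 2.37), Tubb2a (42.0 ± 0.508) and Tuba4a (1.94 ± 0.104). Of these, Tubb2b and Tuba1b, and Tuba1b and Tuba1c, differed by less than their summed SDs. Tubb5 took 52.4 to 54.1% of the summed level of the 10 genes in the IPs and 36.6 to 36.8% in the inputs. Tubb6 took 1.72 to 1.77% in the IPs and 10.7 to 10.9% in the inputs. The ratio of alpha to beta level was 0.225, 0.220 and 0.238 in the IPs and 0.277, 0.283 and 0.268 in the inputs.

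Among genes that act on tubulin, the folding list was lowest over input: 2 of 21 genes were higher and 19 lower, with a median log2 fold of -2.20. The prefoldin subunit Pfdn5 was at -4.82, the cofactor Tbca at -4.47 and the CCT chaperonin subunits Tcp1 and Cct5 at -2.20 each (edgeR adjusted p from 9.42e-20 to 2.00e-18). The 2 higher genes, named after their values were seen, were Tbcel at 1.59 and Tbcd at 0.98. Of 7 other tubulins 1 was higher, Tubb4a at 1.07, and 5 were lower, with Tubg1 at 5.07 ± 0.377 CPM in the IPs and 33.9 ± 1.01 CPM in the inputs (SD, n = 3; log2 fold -2.74, edgeR adjusted p = 2.21e-16). The gamma-tubulin ring complex list had 2 of 11 higher and 6 lower (2 and 9 by library size), with Mzt1 at -2.02 and Tubgcp6 at 0.89. Of 12 autoregulation genes 6 were higher and 5 lower (5 and 6 by library size), with the deadenylases Cnot6l at 1.48 and Cnot6 at 1.19, the complex subunits Cnot1 at 0.81 and Cnot3 at -1.19, and Ttc5 at 0.48. Of 23 modification genes 12 were higher and 9 lower (10 and 9 by library size), with Ttll4, a tubulin polyglutamylase, at 1.73, Ttll12 at 1.12 and the polyglutamylase subunit Tpgs1 at -2.84. Of 22 lattice-binding, severing and sequestering genes 12 were higher and 8 lower (10 and 9 by library size), with the structural protein gene Map1b at 1.34 and the tubulin-sequestering protein gene Stmn1 at -3.34. Of 14 Sertoli markers tested 9 were higher and 5 lower, with sums of 10380 to 11500 CPM in the IPs and 14010 to 15340 CPM in the inputs. Clu, 1 of the 5, made up 4447 ± 431 CPM in the IPs and 8477 ± 609 CPM in the inputs (SD, n = 3). All 7 myoid markers were lower, with sums of 937 to 1076 CPM in the IPs and 2380 to 2434 CPM in the inputs; the part of such cells in the tubulin values was not tested.

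The 2 comparisons use separate cells and share no library, and the members' folds in them are set side by side. Tuba1b, Tuba1c and Tubb5 fell in the cKO and were higher in the IP, 3 of the 9 members tested in both, where 11.6% of the 11142 genes tested in both did so. Tuba1a and Tubb3 fell in the cKO and were lower in the IP, 2 of 9, where 10.6% of genes did so. Both shares also depend on how many genes fell in the cKO. Of the genes that fell there, 1294 were higher in the IP and 1183 lower. The members' 3 and 2 are thus not set apart from the other genes that fell. Tubb4b fell in the cKO with a log2 fold of 0.00 in the IP. Tubb6, the member with the lowest fold over input, did not pass in the cKO. The 5 members other than Tubb4b that fell thus had cKO log2 folds from -1.27 to -1.01 at IP folds from -1.36 to 1.08.

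**Figure D4:**
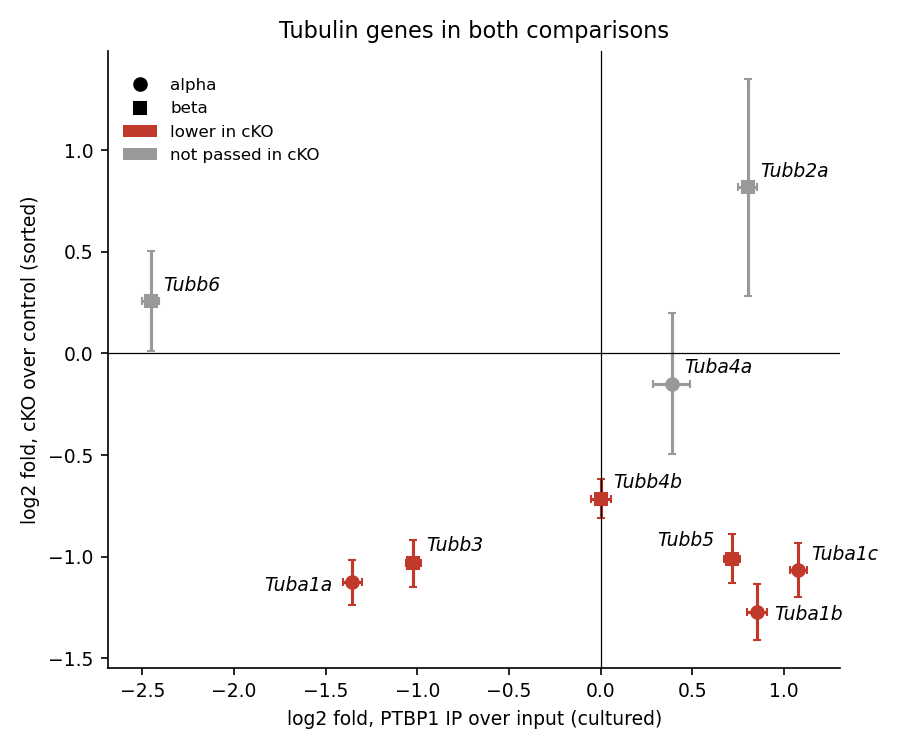
Log2 fold of each tubulin gene in PTBP1 IP over input (x axis) against cKO over control (y axis), with standard errors; circles are alpha and squares beta genes, red those lower in the cKO. Tubb2b was not tested in sorted cells and is not drawn. Tuba1a and Tubb3 sit left of 0 and Tuba1b, Tuba1c and Tubb5 right of 0 at nearly the same height, between -1.27 and -1.01.

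By distance between centred log2 CPM over the 12 libraries, the 5 genes most like the mean profile of the 9 members tested in both tables were Plekhh3, Mapkapk2, Mras, Cd82 and Arf5, at 0.198 to 0.269. The members themselves lay at 0.508 (Tubb4b) to 3.09 (Tubb6) from that mean, each farther than these 5 genes.

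The isotype make-up of cultured and of freshly sorted cells is given side by side, with no test, because the tables differ in kit, RNA selection and scaling. Tubb2a and Tubb2b together were at 186 to 191 CPM in the cultured inputs and at 0.716 to 1.95 CPM in the sorted controls. Tubb6 was at 259 to 279 CPM in the inputs and 24.2 to 27.9 CPM in the sorted controls. Tuba3b went the other way, with 2.25 to 2.49 CPM in the inputs and 133 to 193 CPM in the sorted controls. Per kilobase, Tuba1a took 13.3 to 13.8% of the summed tubulin level in the inputs and 35.2 to 35.7% in the sorted controls. Marker sums differed as well: myoid markers summed to 2380 to 2434 CPM in the inputs and 345 to 365 CPM in the sorted controls, dividing-cell markers to 964 to 1149 CPM in the inputs and 133 to 186 CPM in the sorted controls, and spermatocyte markers to 14.4 to 14.8 CPM in the inputs and 258 to 373 CPM in the sorted controls. Their part in the tubulin levels was not tested.

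**Figure D5:**
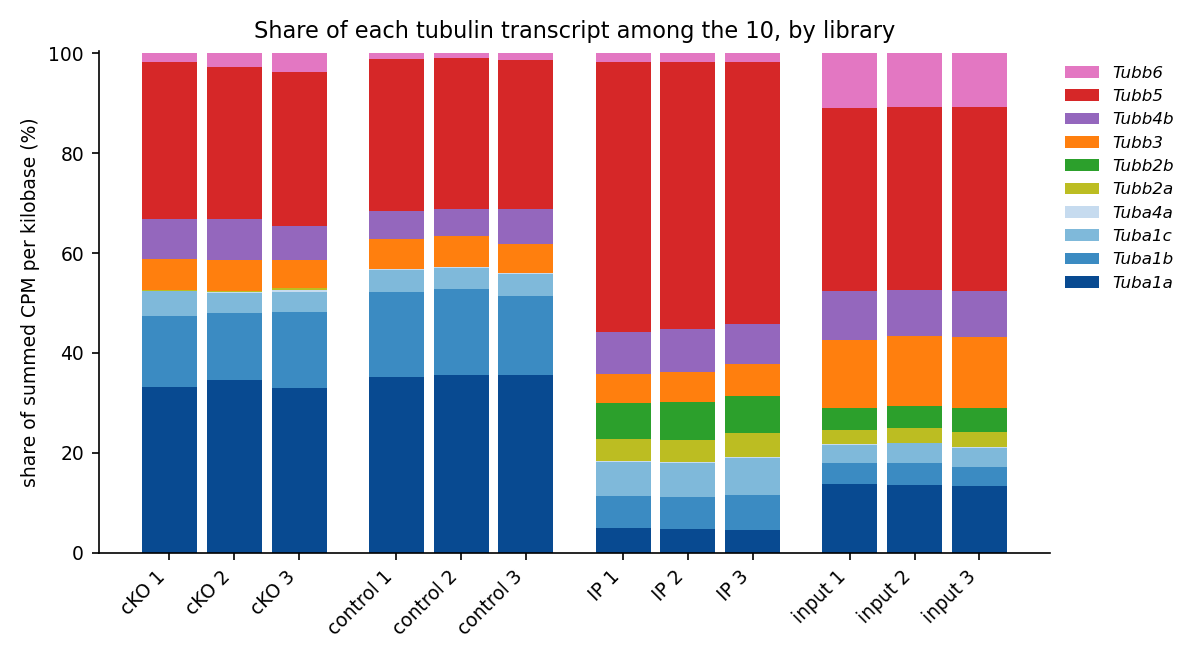
Share of each tubulin gene in the summed CPM per kilobase of the 10 genes, as stacked bars for each of the 12 libraries. Tuba1a takes 33.0 to 34.7% in cKO and 35.2 to 35.7% in control cells, Tubb5 takes 52.4 to 54.1% in the IPs and 36.6 to 36.8% in the inputs, and Tubb2a and Tubb2b are visible only in the cultured libraries.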

How the data were processed

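RNA of 12 libraries was sequenced by the submitters. The authors deposited raw counts, whole numbers of reads per gene, in 1 table of sorted and 1 of cultured libraries. Exon lengths and other annotation came from the deposited sorted table. Builds and tools given in the submitters' processing notes are mm10, STAR, HTSeq, cutadapt, DESeq2, bcl2fastq 2.20 and Bowtie2 2.3.5.1; the step each served is not given in the sources used here. Columns of sorted libraries name the group only, so libraries are numbered in table order. The 84 other per-library columns of that table, some of which were looked at, were not used.

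Both comparisons were fitted separately, on 6 libraries each, with edgeR 4.0.16 in R 4.3.3 (filterByExpr, TMM, robust quasi-likelihood fit, two-sided test, Benjamini-Hochberg adjustment over all genes tested, threshold 0.05), after a check on simulated data. For the sorted comparison the check recovered 29.9% of simulated 1.5-fold, 61.2% of 2-fold and 95.5% of 4-fold changes, with 6.77% false calls. For the cultured comparison it recovered 88.1, 88.1 and 98.5%, with 9.85% false calls. Each check changed 200 genes, far fewer than were called in the data, so its rates may not carry over to these comparisons. The SE of a log2 fold is its size divided by the root of F. DESeq2 1.42.0, other scalings, no filter and left-out libraries were alternatives. Members, lists and tests were chosen with earlier results of these data known. Named genes were the members, Ptbp1, up to 4 per pathway list with the smallest p, and the 5 nearest profiles, with the additions stated; 1 gene under this rule is not reported here. No 2 libraries of a group were duplicates (chi-square per degree of freedom at least 2.19).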

Additional observations from a re-analysis of the deposited data

How the results depend on the processing

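The 6 falls in the cKO were called under every alternative run: DESeq2, its size factors, library size alone, no filter on low counts, each library left out in turn, and the third library of both groups left out. Their log2 folds then ranged from -1.50 to -1.10 for Tuba1b, the gene that fell most, and from -0.75 to -0.54 for Tubb4b, the gene that fell least. Scaling by library size alone put the median over sorted genes at 0.17 and gave 3476 genes higher and 1863 lower, against 2359 and 2870; leaving out the third cKO and the third control library, these were 3023 and 3545, and with 1 library left out 1717 to 2537 higher and 2067 to 3123 lower. Among cultured libraries, library size alone gave 4207 genes higher and 7034 lower, against 5527 and 5758, and 5 members higher and 4 lower, the changes being Tuba4a and Tubb4b; all other alternatives run gave 6 and 3, as did summing the libraries named 1_1 and 1_2. IP and input libraries share replicate numbers, but deviations of same-numbered libraries correlated at 0.0403 to 0.175, not all above 0.1, so the numbers were not taken as pairs; with them as a replicate block 5628 genes were higher and 5834 lower, with 6 and 3 members. No paired analysis was possible for the sorted libraries because their columns carry no replicate numbers.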
